A study of Sus scrofa with 59 samples.

Results

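NR4A2 (also called NURR1) and NR4A3 (NOR1) are orphan nuclear receptors, transcription factors for which no classical hormone ligand is established. They were chosen by their gene symbol in the platform annotation, with every probe set of either gene, and they are 2 of the 6765 genes that the annotation names on the array. NR4A3 had 2 probe sets and NR4A2 had 1. The third family member, NR4A1, had 0 probe sets under that symbol and was not analysed here.

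The NR4A genes behave as immediate early genes: their transcription is switched on within minutes by cAMP, calcium, stretch or growth factor signals, without new protein synthesis, and their mRNAs are short-lived. The proteins bind DNA as monomers or dimers and are controlled mainly by how much of them is made. In mouse skeletal muscle, NR4A mRNAs rise after exercise and beta-adrenergic stimulation, and NR4A1 and NR4A3 have been linked there to genes of glucose use, fat oxidation and oxidative capacity.

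RNA came from the back muscle longissimus dorsi of 59 pigs of a cross that the labels call LD/LW x Duroc, aged 170 days and raised together, with 1 Affymetrix array per pig. Muscle was taken at slaughter and snap frozen, and the labels describe the animals both as drawn at random after weaning and as selected on composition and quality traits. No label used here gives a group, sex, batch or trait value per pig, so all 59 arrays form 1 group and the tests below are relations across pigs. The question addressed is how far the 2 receptors vary between pigs, whether they vary together, and which metabolic, fibre-type and immediate early genes vary with each of them.

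The deposited values, read as log2, ran from 2.39 to 15.04, with array medians from 6.23 to 6.30 and correlations between arrays from 0.969 to 0.995. Precision is set by how many arrays there were. Muscle markers were at the top of the scale in every pig (CKM, the muscle creatine kinase gene, from 14.53 to 14.70), and the leukocyte gene PTPRC was low, with a mean of 3.94. A probe set was tested when its mean reached 6.28, the median of all means, which left 11972 probe sets and 4924 named genes. Of the 3 probe sets of the receptors, 2 passed: the brighter one of NR4A3 and that of NR4A2. Each stands for its gene below.

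NR4A3 was among the most variable genes in these muscles, and NR4A2 varied less but still far more than most genes. NR4A3 was 4.94 log2 in the lowest pig, 6.85 at the median and 10.32 in the highest, with a mean of 7.04 ± 1.31 (SD, n = 59). The middle of the distribution, between the lower and upper quartiles, ran from 5.87 to 8.07. Values were spread evenly from low to high except at the top, where pig 36 stood 1.26 above the next animal, pig 67 at 9.06. The distance from lowest to highest corresponds to 41.5-fold on the deposited scale.

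NR4A2 was 5.05 log2 in the lowest pig, 6.58 at the median and 8.85 in the highest, with a mean of 6.55 ± 0.850 (SD, n = 59). Its highest pig was pig 28, followed by pig 13 at 8.38, and its range corresponds to 13.9-fold. By SD over the pigs, NR4A3 ranked 8th and NR4A2 37th of 4924 genes, whose median SD was 0.197. Both receptors were dim in part of the animals: NR4A3 lay below 6.28 in 20 pigs and NR4A2 in 23, where differences between pigs are less certain. The 2 genes were lowest in the same animal, pig 43, at 4.94 for NR4A3 and 5.05 for NR4A2.

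Among the 12 tested immediate early genes, SDs ran from 0.141 to 1.15 with a median of 0.507. The zinc finger factor EGR1 had 1.15, the stress-induced factor ATF3 1.11 and the AP-1 subunit FOS 1.08, so NR4A3 had a larger SD than any of them and NR4A2 a smaller one than these 3. The second NR4A3 probe set was dimmer, from 3.86 through a median of 4.66 to 7.20, and was below 6.28 in 56 pigs. It ordered the pigs much as the brighter one did, with r = 0.898 and rho = 0.904 (permutation p = 1e-05 for each, the smallest that 100000 resamples give) and r = 0.880 without the 2 pigs farthest from the NR4A3 median. Pig 36 was highest on both.

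**Figure D1:**
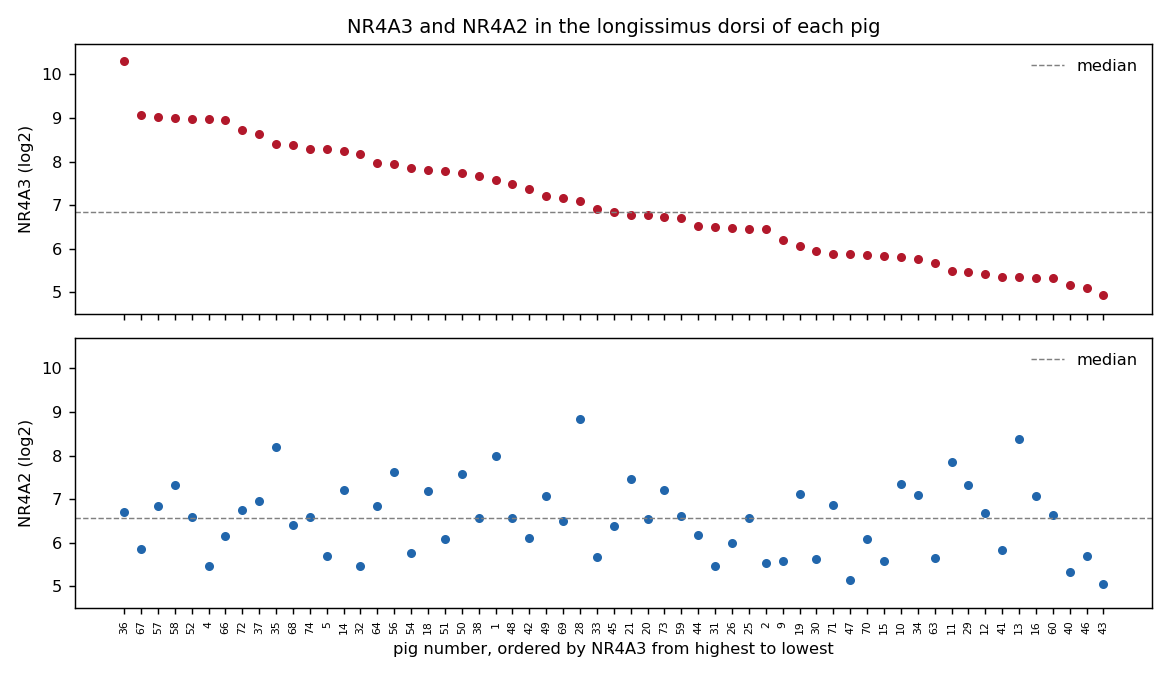
Log2 level of NR4A3 (upper panel) and NR4A2 (lower panel) in each of the 59 pigs, ordered by NR4A3 on the horizontal axis, with dashed lines at the medians of 6.85 and 6.58. NR4A3 declines evenly after pig 36 at 10.32, while NR4A2 shows no visible order along the same pigs.

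Pigs with high NR4A3 were not in general pigs with high NR4A2. Over the 59 pigs r was 0.127 (95% interval -0.134 to 0.371, permutation p = 0.338) and rho was 0.142 (p = 0.281). Without the 2 pigs farthest from the NR4A3 median, pigs 36 and 67, r was 0.154 (p = 0.252), and leaving out any single pig gave 0.0813 to 0.186. The dimmer NR4A3 probe set gave r = 0.0887 (p = 0.505). The interval covers a moderate positive relation as well as none. In 16 pigs both receptors lay above their medians, in 13 NR4A3 alone, in 13 NR4A2 alone and in 17 neither.

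Single animals show the spread of combinations. Pig 36, highest for NR4A3 at 10.32, had 6.71 for NR4A2, which ranked 24th. Pig 28, highest for NR4A2 at 8.85, had 7.08 for NR4A3, which ranked 28th. Pig 4 had 8.98 for NR4A3 and 5.46 for NR4A2, and pig 13 had the opposite combination, with 5.35 for NR4A3 and 8.38 for NR4A2. Only 2 pigs were among the 10 highest for both genes, and 2 were among the 10 lowest for both.

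**Figure D2:**
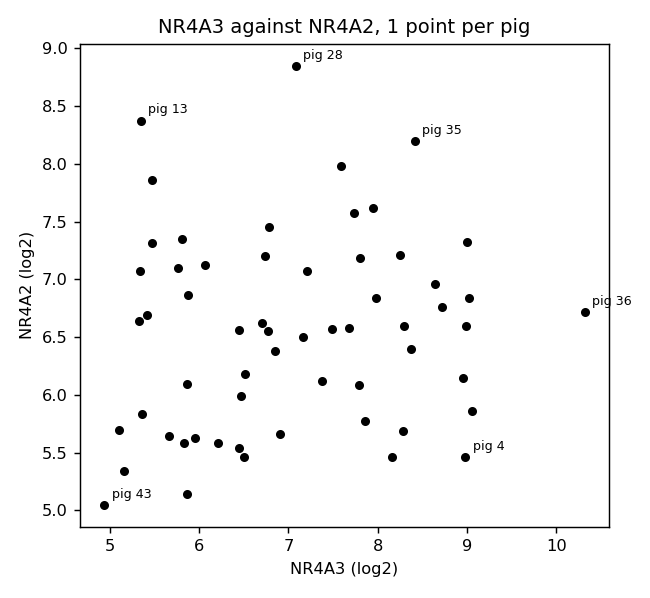
NR4A3 (horizontal axis, log2) against NR4A2 (vertical axis, log2), 1 point per pig, with 6 pigs named. The points fill the plane with r = 0.127, and pigs 4 and 13 lie in opposite corners.

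Both receptors were related to the other immediate early genes, and NR4A3 also to muscle strain and heat shock genes. To measure this, 15 gene lists were turned into scores, each the mean of a list's tested genes after standardising every gene over the pigs. Their relations to NR4A3 and to NR4A2 made 30 tests, adjusted together by Benjamini-Hochberg. NR4A3 was related to 5 of the 15 scores, 4 positively and 1 negatively, and NR4A2 to 2 of the 15, both positively. By Spearman's rho the counts were 4 and 2.

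The score of 12 immediate early genes had r = 0.605 with NR4A3 (95% interval 0.413 to 0.746, permutation p = 1e-05, adjusted p = 0.0001; rho = 0.612) and r = 0.550 with NR4A2 (0.342 to 0.707, permutation p = 2e-05, adjusted p = 0.00015; rho = 0.579). Without the 2 extreme pigs of each receptor, the values were 0.562 for NR4A3 and 0.539 for NR4A2. Given the principal component described below, the partial r was 0.427 with NR4A3 (adjusted p = 0.0082) and 0.712 with NR4A2 (adjusted p = 0.00015). A test of the difference, added after the data had been seen, gave an adjusted p of 0.803 over the 15 lists. With the immediate early score held constant, the partial r between NR4A3 and NR4A2 was -0.310 (permutation p = 0.0166), against 0.127 without it. Its negative sign follows by arithmetic, since both receptors were related to the score and hardly to each other. Nothing further is read from it.

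The early response feedback score holds 13 feedback, growth arrest and stress genes, among them those of MAP kinase phosphatases and mRNA-destabilising proteins. It had r = 0.327 with NR4A3 (permutation p = 0.0113, adjusted p = 0.0483; rho = 0.298, adjusted p = 0.0963) and r = 0.584 with NR4A2 (permutation p = 1e-05, adjusted p = 0.0001; rho = 0.612). The relation to NR4A3 was 0.243 (adjusted p = 0.232) without pigs 36 and 67, and it no longer passed when any of 38 single pigs was left out. The relation to NR4A2 was 0.543 without its 2 extreme pigs, pigs 13 and 28. The difference between the relations to NR4A3 and NR4A2 did not pass (adjusted p = 0.276).

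The muscle strain score, 5 genes induced by stretch or damage of muscle fibres, had r = 0.589 with NR4A3 (0.392 to 0.734, permutation p = 1e-05, adjusted p = 0.0001; rho = 0.555) and r = 0.0335 with NR4A2 (-0.225 to 0.287, permutation p = 0.802). The heat shock score, 21 chaperones and their regulators, had r = 0.483 with NR4A3 (0.259 to 0.658, permutation p = 0.00012, adjusted p = 0.00072; rho = 0.410) and r = -0.108 with NR4A2 (-0.354 to 0.152, permutation p = 0.417). Without pigs 36 and 67, the NR4A3 values were 0.542 for strain and 0.458 for heat shock. These were the 2 lists of 15 whose relations to the receptors differed, each with an adjusted p of 0.00743. Both relations to NR4A3 lost their call with the first principal component of the other probe sets held constant, where strain had a partial r of 0.285 (adjusted p = 0.168) and heat shock 0.0122 (adjusted p = 0.967). They also lost it given the immediate early score, with 0.277 (adjusted p = 0.117) and 0.245 (adjusted p = 0.171).

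The scores of energy metabolism and fibre type did not pass with either receptor. Oxidative phosphorylation, the respiratory chain and ATP synthase, had r = 0.101 with NR4A3 (-0.159 to 0.348) and -0.0914 with NR4A2 (-0.340 to 0.169). Fatty acid oxidation had -0.0288 with NR4A3 and -0.110 with NR4A2, the TCA cycle -0.000115 and -0.150, and glycolysis -0.206 and 0.0837. The slow fibre score, contractile genes of oxidative type I fibres, had 0.0974 with NR4A3 and -0.0542 with NR4A2. The fast fibre score had -0.198 with NR4A3 and 0.186 with NR4A2, and that difference did not pass either (permutation p = 0.0256, adjusted p = 0.128). Without pigs 36 and 67, r with NR4A3 was 0.224 for oxidative phosphorylation, 0.106 for fatty acid oxidation and 0.127 for the TCA cycle. For glycolysis, slow fibre and fast fibre it was -0.221, 0.139 and -0.156, and none passed. Pig 36 had the lowest oxidative phosphorylation, fatty acid oxidation and TCA cycle scores. Their relations to NR4A3 thus depended in part on the pigs left out. The intervals over all pigs leave room for weak relations of either sign and for some moderate ones. They reach -0.439 for glycolysis with NR4A3 and 0.422 for fast fibre with NR4A2.

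Scores of fat and glycogen genes leaned towards a negative relation to NR4A3, which for glycogen turned positive given the principal component. The lipogenesis score of 5 genes had r = -0.347 (-0.554 to -0.100, permutation p = 0.00714, adjusted p = 0.0357) and rho = -0.408 (adjusted p = 0.0076). Without pigs 36 and 67 it was -0.321 (adjusted p = 0.0742), given the principal component -0.312 (adjusted p = 0.118), and it also no longer passed without pig 16, 37, 43 or 58 alone. The adipocyte marker score, with 5 of 12 listed genes tested, had -0.318 (adjusted p = 0.0528), and it passed when any of 18 single pigs was left out. The glycogen metabolism score had r = -0.282 (adjusted p = 0.101) but rho = -0.0611, and it passed without pig 67 (r = -0.333). Given the principal component, the partial r with NR4A3 was 0.201 for glycogen and -0.1685 for the adipocyte score, and neither passed. With NR4A2 the lipogenesis, adipocyte and glycogen scores had r of -0.0961, -0.0196 and 0.00868. Given the immediate early score, glycogen had a partial r of 0.369 with NR4A2 (adjusted p = 0.0272), from which nothing is read either. In a bulk sample, fewer cells of a type and less RNA per cell cannot be told apart, which applies to every score of a cell type here.

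**Figure D3:**
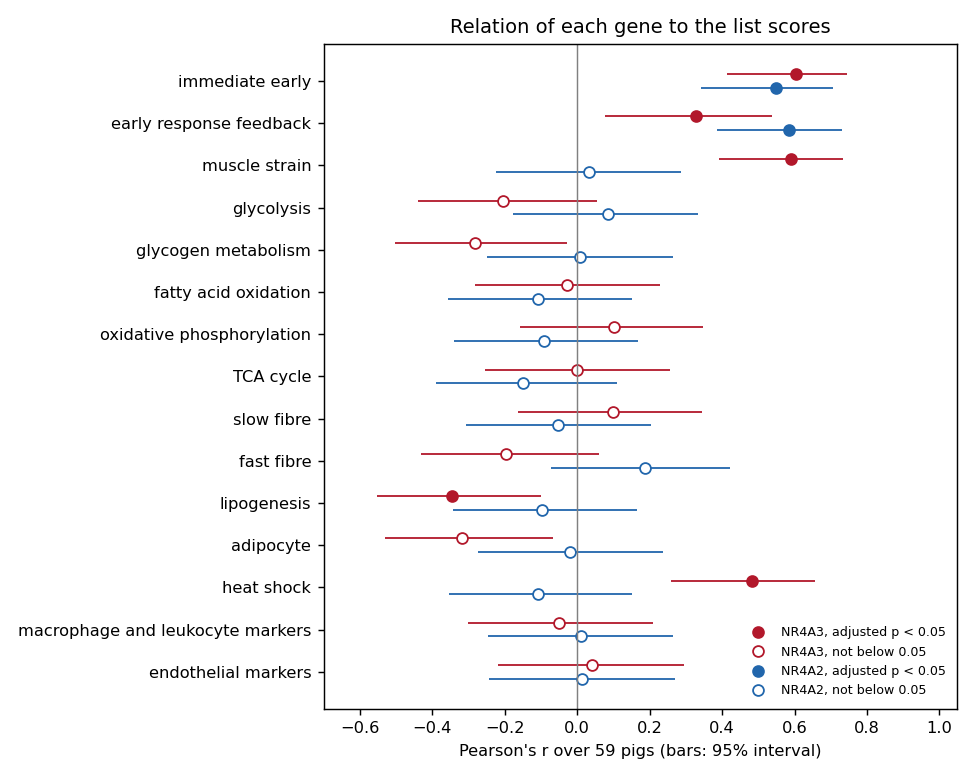
Pearson's r over 59 pigs between each of 15 list scores and NR4A3 (red, upper of each pair) or NR4A2 (blue, lower), with 95% intervals, filled where the adjusted p is below 0.05. The immediate early score is filled for both receptors, the muscle strain and heat shock scores for NR4A3 only, and the metabolic and fibre scores are open except lipogenesis with NR4A3.

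Gene by gene, NR4A3 was accompanied by a large part of the measured transcriptome and NR4A2 by a small one. With limma and Benjamini-Hochberg adjustment over all probe sets, 2796 of 11971 probe sets had a slope on NR4A3 at an adjusted p under 0.05 (23.4%), 1502 positive (12.5%) and 1294 negative (10.8%). On NR4A2 it was 59 of 11971 (0.493%), 48 positive (0.401%) and 11 negative (0.0919%), with 1155 at an unadjusted p under 0.05 against 4328 for NR4A3. Counted as named genes, 660 of 4923 followed NR4A3 positively (13.4%) and 513 negatively (10.4%), together 23.8%. For NR4A2, 24 followed it positively (0.488%) and 7 negatively (0.142%), together 0.63%. "Followed" means below that a gene passed this test, and a slope is the change in log2 level per SD of the receptor.

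The breadth of the NR4A3 relation went with a general axis of variation in these arrays. The first principal component of the probe sets outside the lists carried 16.5% of the variance and had r = 0.568 with NR4A3, -0.0786 with NR4A2, 0.840 with the heat shock score and 0.549 with the immediate early score. With it as a covariate, 15 probe sets still had a called slope on NR4A3, 13 of them among the 2796. They name 5 genes, DDIT3, PPARGC1A, ATF3, SLC25A5 and RDH11, so every other named gene below lost its call on NR4A3 with this covariate. The difference between the receptors, tested further below, then passed for 174 probe sets and 71 genes. What this component stands for was not tested.

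DDIT3 was the gene closest to NR4A3. It encodes CHOP, a transcription factor of the endoplasmic reticulum stress and integrated stress responses. Its level was 7.67 in the lowest pig, 8.79 at the median and 9.81 in the highest. It followed NR4A3 with r = 0.750 and rho = 0.815 (slope 0.33 ± 0.04, SE, adjusted p = 3.41e-08, limma), with r = 0.771 without the 2 extreme pigs. Its r with NR4A2 was -0.0221, and the difference between the relations passed (adjusted p = 0.000157). With the principal component as covariate its slope on NR4A3 was 0.30 ± 0.05 (adjusted p = 0.000146, limma).

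PPARGC1A encodes PGC-1alpha, the coactivator of mitochondrial gene programmes, which is itself induced by exercise and cAMP in muscle. It ran from 7.47 through 8.59 to 11.17 and followed NR4A3 with r = 0.664 and rho = 0.710 (slope 0.58 ± 0.08, adjusted p = 3.78e-06, limma). Pig 36 departed from this relation, with the highest NR4A3 but a PPARGC1A level of 8.08, and without pigs 36 and 67 r was 0.733. With NR4A2 its r was -0.233 (adjusted p = 0.548), and the difference had an adjusted p of 4.83e-06. Its slope on NR4A3 with the principal component as covariate was 0.58 ± 0.10 (adjusted p = 0.00116, limma), as large as without it. The oxidative phosphorylation genes, whose expression PGC-1alpha promotes, did not follow NR4A3 in any of 32 cases, against 23.8% of all genes.

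CREM and PRKAG2 were also among the 10 genes with the highest r to NR4A3. CREM, whose cAMP-inducible ICER form represses cAMP-responsive genes, ran from 9.65 through 10.82 to 12.09 and had r = 0.660 and rho = 0.655 (slope 0.39 ± 0.06, adjusted p = 4.15e-06, limma). PRKAG2, a regulatory subunit of AMP-activated protein kinase, ran from 7.40 through 8.53 to 9.99 and had r = 0.653 and rho = 0.618 (slope 0.48 ± 0.07, adjusted p = 5.42e-06, limma). Both differed from their relation to NR4A2, with adjusted p of 0.0088 for CREM and 0.000342 for PRKAG2, but not with the principal component as covariate (0.724 and 0.201). The others were ATF3 (r = 0.706), the mannose 6-phosphate receptor gene M6PR (0.683), the mitochondrial ADP/ATP carrier gene SLC25A5 (0.678), the heat shock factor gene HSF2 (0.663), the methyltransferase gene NTMT1 (0.657) and the splicing factor gene SRSF2 (0.651).

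The gene with the lowest r to NR4A3 was SESN1, a p53- and FOXO-regulated inhibitor of mTORC1 signalling. It had r = -0.637 and rho = -0.580 (slope -0.22 ± 0.03, adjusted p = 1.25e-05, limma). It was bright in most pigs, from 10.39 through 11.92 to 12.41. MYLIP, the ubiquitin ligase that degrades the LDL receptor, had r = -0.626, and PIK3IP1, an inhibitor of PI3 kinase, -0.594. The MYC-network repressor MXD4 had -0.595 and the acyltransferase gene AGPAT5 -0.598. The remaining 5 were ASNSD1 (-0.627), ECHDC1 (-0.614), EIF2B2 (-0.600), C1H15orf57 (-0.593) and FBXO9 (-0.589). A second probe set of ASNSD1 had r = -0.0372 and one of FBXO9 -0.177, so these 2 genes are less certain.

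Of the 12 tested immediate early genes, 10 followed NR4A3, all positively, with a median r of 0.433 against -0.0132 over all genes, and 6 followed NR4A2, all positively, with a median r of 0.444 against -0.0209. The count for NR4A3 is read against 13.4% of all genes and that for NR4A2 against 0.488%. ATF3 was 6.74 in the lowest pig, 8.70 at the median and 11.64 in the highest, pig 36. It had r = 0.706 and rho = 0.706 with NR4A3 (slope 0.78 ± 0.10, adjusted p = 5.47e-07, limma) and 0.303 with NR4A2 (adjusted p = 0.359), a difference that did not pass (adjusted p = 0.067). FOSL2, the AP-1 subunit FRA2, was the only one of the 12 whose relation differed, with r = 0.615 for NR4A3 and -0.0326 for NR4A2 (adjusted p of the difference 0.0017).

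FOS was the gene closest to NR4A2. Its levels ran from 8.85 through 11.92 to 13.20, and it had r = 0.694 and rho = 0.678 with NR4A2 (slope 0.75 ± 0.10, adjusted p = 4.52e-06, limma), with 0.670 without pigs 13 and 28. It also followed NR4A3, with r = 0.413 (adjusted p = 0.0076), and the difference did not pass (adjusted p = 0.233). Its highest value, 13.20, was in pig 13, where NR4A3 was only 5.35. The matricellular growth factor gene CYR61 had r = 0.647 with NR4A2 and 0.473 with NR4A3, and the Krüppel-like factor gene KLF4 0.645 and 0.377. IER2, EGR1 and JUN followed both receptors as well. MYC (0.595) and IER3 (0.440) followed NR4A3 but not NR4A2, though neither difference passed.

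**Figure D4:**
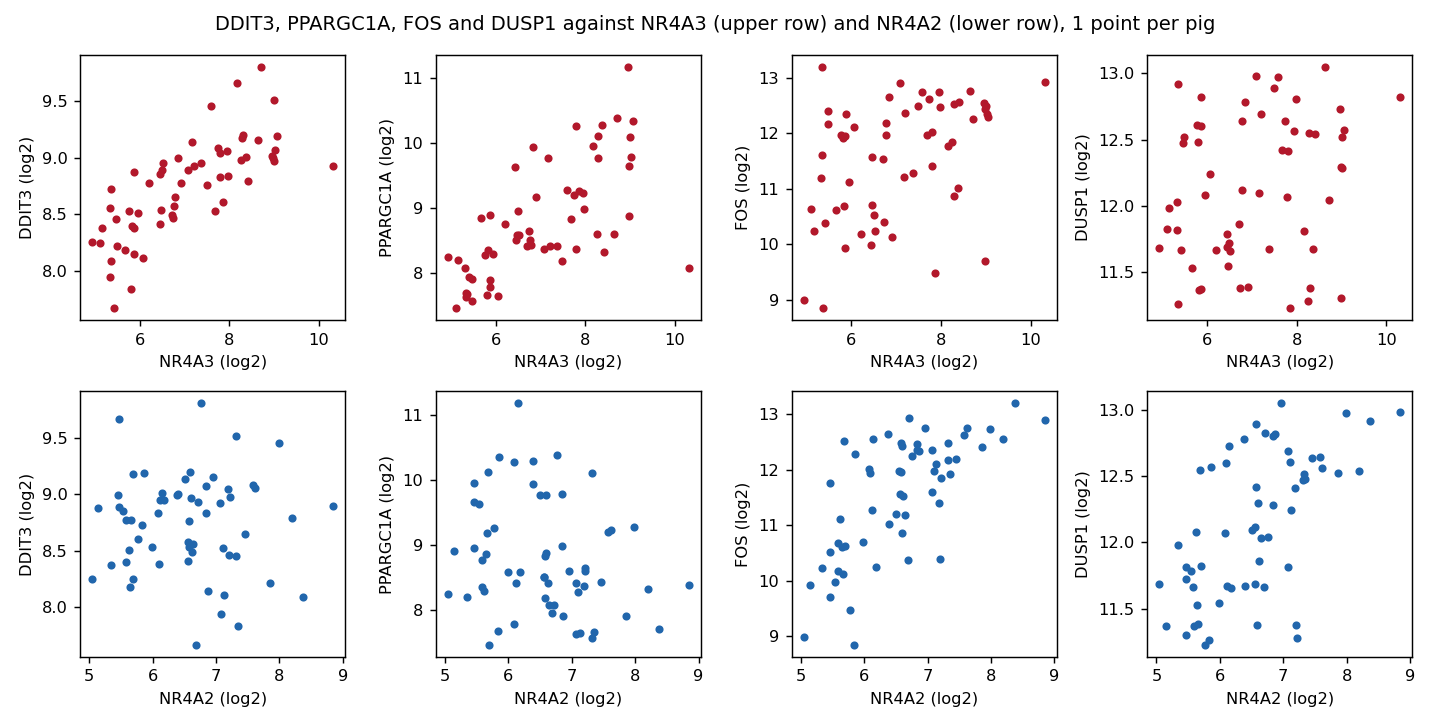
DDIT3, PPARGC1A, FOS and DUSP1 (vertical axes, log2) against NR4A3 (upper row) and NR4A2 (lower row), 1 point per pig. DDIT3 and PPARGC1A climb with NR4A3 and not with NR4A2, FOS climbs with both, and pig 36 at NR4A3 10.32 lies low for PPARGC1A.

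Each receptor was followed by 4 of the 13 feedback genes, with BTG2 and GADD45B in common, against 13.4% of all genes positive with NR4A3 and 0.488% with NR4A2. With NR4A2, 4 of 13 followed positively: the mRNA-destabilising protein gene ZFP36 (r = 0.602), the MAP kinase phosphatase gene DUSP1 (0.599), the antiproliferative gene BTG2 (0.575) and GADD45B (0.502). With NR4A3 it was also 4 of 13: GADD45A (0.585), the eIF2alpha phosphatase subunit gene PPP1R15A (0.528), GADD45B (0.407) and BTG2 (0.374). DUSP1 ran from 11.23 through 12.10 to 13.05 and had a slope on NR4A2 of 0.33 ± 0.06 (adjusted p = 0.000435, limma), against r = 0.232 with NR4A3 (adjusted p = 0.176). GADD45A, a stress sensor of growth arrest, ran from 7.74 through 8.94 to 12.35, again highest in pig 36, and had a slope on NR4A3 of 0.61 ± 0.11 (adjusted p = 7.64e-05, limma). Its r with NR4A2 was -0.00402, and the difference passed (adjusted p = 0.00464, but 0.783 with the principal component), whereas that of DUSP1 did not (adjusted p = 0.103). TOB1, named here after its values were seen, differed the other way, with r = -0.222 for NR4A3 and 0.418 for NR4A2 (adjusted p of the difference 0.002).

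Of the 5 muscle strain genes, 3 followed NR4A3 positively, against 13.4% of all genes, and 0 followed NR4A2, where the share of all genes is 0.488%. RRAD, a small GTPase that inhibits calcium channels, had r = 0.643 with NR4A3, the titin-associated repeat protein gene ANKRD1 0.633 and the actin-binding repeat protein gene XIRP1 0.618. Their r with NR4A2 were 0.0448, -0.00353 and 0.103, and all 3 differences passed, with adjusted p from 0.00197 to 0.0153. With the principal component as covariate all 3 slopes on NR4A3 and all 3 differences lost their calls, and the difference of XIRP1 turned to -0.013 (adjusted p = 0.936, limma). XIRP1 ran from 9.18 through 10.82 to 13.19, ANKRD1 from 9.89 through 12.05 to 14.21 and RRAD from 9.10 through 10.72 to 13.38. Pig 36 held the highest value of each, and without it and pig 67 the values were 0.608 for RRAD, 0.600 for ANKRD1 and 0.601 for XIRP1. HBEGF (0.306) and XIRP2 (0.294) did not pass.

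Of the 21 heat shock genes, 15 followed NR4A3 positively, against 13.4% of all genes, with a median r of 0.397. With NR4A2 it was 0 of 21, against 0.488% of all genes, with a median r of -0.0840. The highest were HSF2 (0.663), the inducible HSP70 gene HSP70.2 (0.520), the co-chaperone gene BAG3 (0.518) and the endoplasmic reticulum chaperone gene HSPA5 (0.501). HSP70.2 was bright, from 11.88 through 13.06 to 13.98, and had a slope of 0.26 ± 0.05 (adjusted p = 0.000595, limma). HSF1, the main heat shock regulator, had r = -0.00737. For 12 of the 21 genes the relations to NR4A3 and NR4A2 differed, each higher for NR4A3, against 12.3% of all 4922 genes in that direction.

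Of 9 tested genes tied to the NR4A receptors in mouse muscle work, 2 followed NR4A3 positively and 1 negatively, and 0 followed NR4A2. These shares are near those of all genes, 13.4% positive and 10.4% negative with NR4A3 and 0.63% with NR4A2, so they say nothing particular about the list. The positive ones were PPARGC1A and LPIN1, a phosphatidate phosphatase that also acts as a coactivator, with r = 0.558 (slope 0.19 ± 0.04, adjusted p = 0.00021, limma). FBP2, the muscle fructose bisphosphatase, was negative, with r = -0.425 (slope -0.17 ± 0.05, adjusted p = 0.00609, limma). UCP3, a mitochondrial carrier that rises with fatty acid supply, had 0.304 (adjusted p = 0.0624), and SLC2A4, which encodes the insulin-responsive glucose transporter GLUT4, had -0.228 (adjusted p = 0.199). In mice the NR4A receptors have been reported to raise several of these genes, FBP2 among them.

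Few metabolic enzymes followed NR4A3, and 0 of those listed followed NR4A2, against 0.63% of all genes. In glycogen metabolism 2 of 7 followed NR4A3 negatively: PPP1R3B, which targets a phosphatase to glycogen (r = -0.421, slope -0.35 ± 0.10, adjusted p = 0.00639, limma), and the phosphorylase kinase subunit gene PHKB (-0.412). In glycolysis it was 1 of 13, PGK1 (-0.368), which lies between 13.93 and 14.36 in every pig, near the top of the scale. In fatty acid oxidation 1 of 23 followed, ACADL (-0.324, adjusted p = 0.0475), and PDK4, which restrains pyruvate oxidation, had 0.306 (adjusted p = 0.0639). In the TCA cycle DLST followed positively (0.327), SUCLG2 (-0.377) and IDH3G (-0.355) negatively, out of 18. These shares lie near or below the 13.4% and 10.4% of all genes, except for the glycogen genes, where 7 were tested.

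Of all genes, 23.8% followed NR4A3, 13.4% positively and 10.4% negatively. The oxidative phosphorylation genes gave 0 of 32 with NR4A3, with r from -0.217 to 0.298. The slow fibre genes gave 0 of 9, with r from -0.122 for the myosin binding protein gene MYBPC1 to 0.193 for the slow troponin gene TNNT1. Of 9 fast fibre genes 1 followed NR4A3, the Z-disc gene MYOZ1 (r = -0.372, slope -0.03 ± 0.01, adjusted p = 0.0431, limma). That count is near the negative share of all genes. All 9 had a negative r with NR4A3, from -0.372 to -0.0447, and with NR4A2 they ran from -0.0176 to 0.285, with none called. The fast genes sit near the top of the scale, MYLPF between 14.59 and 14.77, so their differences are compressed. No fibre gene had a called difference between the receptors.

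With NR4A3, 2 of 5 lipogenesis genes, 1 of 5 adipocyte genes and 3 of 11 fibroblast and matrix genes followed negatively, against 10.4% of all genes. In lipogenesis the fatty acid elongase gene ELOVL6 (r = -0.484 and -0.465 to -0.135 in 3 dim probe sets, slope -0.25 ± 0.06, adjusted p = 0.00148, limma) and the malic enzyme gene ME1 (-0.396) followed NR4A3 negatively, and FASN, the fatty acid synthase gene, had -0.101. Among the 5 adipocyte genes only CIDEA, a lipid droplet protein, followed, with r = -0.509 (adjusted p = 0.000776, limma), while the adipocyte fatty acid carrier FABP4 had -0.218. The 3 matrix genes were the proteoglycan genes DCN (-0.427) and LUM (-0.370) and the fibrillin gene FBN1 (-0.345). Second probe sets had 0.0822 for DCN and -0.140 for FBN1, so these 2 are less certain. With NR4A2 all 11 had a positive r, from 0.118 to 0.351, but 0 followed it, against 0.63% of all genes. For 5 of the 11 the difference passed, each lower for NR4A3, against 8.07% of all genes in that direction.

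No tested marker of the other cell types followed either receptor. Macrophage and leukocyte markers gave 0 of 9, endothelial 0 of 7, smooth muscle and pericyte 0 of 7, nerve and Schwann cell 0 of 2 and red blood cell 0 of 1, with both NR4A3 and NR4A2. Of all genes, 23.8% followed NR4A3 and 0.63% followed NR4A2. The zeros with NR4A2 therefore say nothing particular about these markers, nor do those of the shortest lists with NR4A3. Their r with NR4A3 ran from -0.310 for SMTN to 0.267 for CD163. The score of 9 macrophage and leukocyte markers had r = -0.0499 with NR4A3 and 0.00958 with NR4A2, and that of 7 endothelial markers 0.0405 and 0.0143.

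The lists of signalling genes upstream of the NR4A family are described by their members, since 23.8% of all genes followed NR4A3, 13.4% positively and 10.4% negatively. In the cAMP list CREM, the kinase anchor gene AKAP1 (r = 0.455) and RGS2 (0.323) followed positively out of 10. RGS2 had rho = 0.144 and r = 0.195 without pigs 36 and 67. Of the 10, 0 followed NR4A2, where the share of all genes is 0.63%, so nothing is read from that 0. In the calcium and calcineurin list the calcineurin catalytic subunit gene PPP3CA (-0.547, slope -0.22 ± 0.04, adjusted p = 0.000285, limma) and the calcium/calmodulin kinase gene CAMK2G (-0.451) followed negatively out of 9, and RCAN1, a calcineurin inhibitor induced by calcineurin activity, positively (0.439). None of 11 other nuclear receptors followed NR4A3 or NR4A2, against 23.8% and 0.63% of all genes. The nearest was NR2F1 (0.309 with NR4A3, adjusted p = 0.059).

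Further lists had few called members, and nothing is read from their shares. With NR4A3, 3 of 12 proteolysis and atrophy genes followed positively, 2 of 8 hypoxia and metallothionein genes positively and 2 negatively, 1 of 6 clock genes each way and 1 of 5 myogenic genes positively, against 13.4% and 10.4%. FOXO1, which drives atrophy and autophagy genes, had r = 0.605 and its target GABARAPL1 0.418, but a dim second FOXO1 probe set had r = -0.0516. The third proteolysis gene was the lysosomal protease gene CTSD (0.358). In the hypoxia list the vasodilator peptide gene ADM had 0.536, ANKRD37 0.387 and the oxygen-sensing hydroxylase gene EGLN1 -0.406. The probe set standing for VEGFA, the vascular growth factor gene, had -0.418, while another reached 0.684, so no direction is given for that gene. The myogenic factor MYF6 had 0.433, and its dim second probe set -0.0386. NFIL3, a repressor of clock output, had 0.574 with NR4A3, and DBP, which it opposes at the same DNA sites, had -0.448. DBP had 0.348 with NR4A2, and the difference for DBP passed (adjusted p = 0.000102, but 0.0632 with the principal component).

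Of the 24 named genes that followed NR4A2 positively, 10 were in the immediate early or feedback lists. Outside them, HES1, a repressor downstream of Notch, had r = 0.594 and rho = 0.545 with NR4A2 (slope 0.17 ± 0.03, adjusted p = 0.000655, limma) and 0.0728 with NR4A3, and that difference passed (adjusted p = 0.0152, but 0.0544 with the principal component). The clock gene PER1, which is also induced by cAMP and glucocorticoids, had 0.555 with NR4A2 and 0.127 with NR4A3 (adjusted p of the difference 0.0507). Its dim second probe set had r = -0.150 with NR4A2. C17H8orf4 had 0.555 and 0.0219, and its difference passed (adjusted p = 0.0119). The rest, named to complete the list, were GEM, ADAMTS1, ARRDC4, ID1, SIN3A, NUAK1, THBS1, RHOB, KLF10, F3 and CXCL2, with r from 0.458 for CXCL2 to 0.548 for GEM.

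The 7 genes that followed NR4A2 negatively were ZNF566, MRPL18, DAP3, PAN2, DIABLO, MFAP3 and FNTB, with r from -0.554 to -0.451. MRPL18 and DAP3 encode proteins of the mitochondrial ribosome, and DIABLO a mitochondrial protein that promotes apoptosis. MRPL18 varied little, from 9.27 through 9.64 to 9.98, with a slope of -0.08 ± 0.02 (adjusted p = 0.00479, limma). ZNF566, a zinc finger gene, had r = -0.554 with NR4A2 and 0.404 with NR4A3, and had the smallest p of all named genes in the test of the difference (adjusted p = 7.53e-07, limma). Its dim second probe set had -0.113 with NR4A2 and -0.0857 with NR4A3, so the opposite signs rest on 1 probe set. Second probe sets had -0.143 with NR4A2 for DIABLO and -0.349 for MRPL18.

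The same pigs underlie both fits. Of the named genes, 11 followed both receptors, which is 0.938% of the 1173 that followed NR4A3 and 35.5% of the 31 that followed NR4A2. Of all named genes tested, 0.63% followed NR4A2 and 23.8% followed NR4A3, and whether the overlap exceeds these shares was not tested. Those positive with both numbered 10: ADAMTS1, BTG2, CXCL2, CYR61, EGR1, FOS, GADD45B, IER2, JUN and KLF4. ZNF566 had opposite signs. Of the 31 genes of NR4A2, 25 had a positive r with NR4A3, and for 12 the 2 relations differed. Over all genes the median r with NR4A3 was -0.0132, and the relations differed for 20.3%. The 31 were chosen by their relation to NR4A2, which enters the difference, so nothing is read from these counts.

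The relations to NR4A3 and NR4A2 differed for 2433 of 11970 probe sets (20.3%), with 11.3% of all probe sets higher for NR4A3 and 9.05% higher for NR4A2, and for 1001 of 4922 genes (20.3%), 604 of them higher for NR4A3 (12.3%) and 397 higher for NR4A2 (8.07%). The 5 genes with the smallest p among those higher for NR4A3 were ZNF566, PPARGC1A, ZNF207, SRSF2 and WDR82, the last 3 encoding nuclear proteins of RNA processing and transcription. ZNF207 had r = 0.587 with NR4A3 and -0.261 with NR4A2, and its second probe set -0.0270 and 0.0782. The 5 among those higher for NR4A2 were FBXL4, ZNF395, NFIB, DYNLT3 and MARCH8. FBXL4, a regulator of mitochondrial turnover, ran from 5.56 through 7.87 to 9.17 and had r = -0.564 with NR4A3 and 0.257 with NR4A2 (adjusted p of the difference 5.42e-05, limma). Its dim second probe set had 0.216 with NR4A3 and -0.0110 with NR4A2, so no direction is given for FBXL4.

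**Figure D5:**
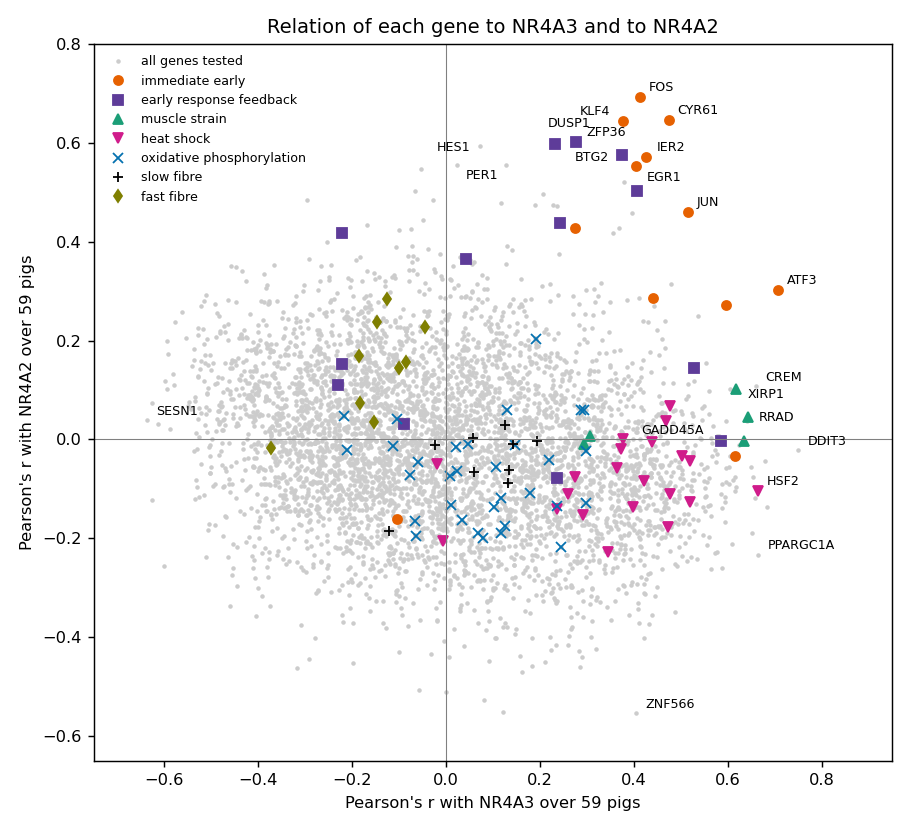
Pearson's r over 59 pigs of each tested gene with NR4A3 (horizontal axis) and with NR4A2 (vertical axis), with 7 gene lists marked and some genes named. FOS, CYR61, KLF4 and other early response genes lie at the upper right, strain and heat shock genes at the right near 0 for NR4A2, and oxidative phosphorylation and slow fibre genes around the centre. ZNF566 lies at the lower right, with the lowest r with NR4A2 of all genes.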

How the data were processed

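Total RNA from the longissimus dorsi of 59 pigs was labelled with biotin and hybridised to Affymetrix arrays, 1 per pig, per the labels' protocols. The deposited table holds 1 log2 value per probe set and array, made by the authors with GCRMA per the submitters' processing notes. The sources used here give neither its version nor the log base, which was read as log2 from the range of values. GCRMA corrects background by probe sequence, and differences of dim genes are less certain. No 2 arrays were identical.

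The 24123 probe sets included 124 controls, and 10099 had 1 gene symbol in the platform annotation, 198 several and 13826 none. Symbols were updated through Entrez identifiers for 9989. Names come from the annotation alone, which gives no build, so no positions are printed. A gene with several tested probe sets was represented by the brightest. The 27 gene lists name 468 genes, 319 of them on the array and 272 tested, 6 older symbols having been matched by hand. The 2 receptors and the lists were chosen with earlier results of these data known.

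Slopes per SD of NR4A3, of NR4A2 and of the difference of the standardised genes (NR4A3 minus NR4A2) were fitted with limma 3.58.1 (lmFit, eBayes) in R 4.3.3, leaving out the controls and the receptor's own probe sets. The slope on the difference is 0 where a gene correlates equally with both. Benjamini-Hochberg adjustment covered all probe sets, with a threshold of 0.05. Correlations have two-sided permutation tests of 100000 resamples and 95% intervals from Fisher's z, computed in Python 3.11.15 with numpy 2.4.6, pandas 2.3.3 and scipy 1.17.1 and drawn with matplotlib 3.10.9. The scripts were tested on simulated data.

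Named genes are the 10 with the highest and the 10 with the lowest r per receptor among those that passed and, with the 2 extreme arrays left out, kept an unadjusted p under 0.05, up to 4 per list with the smallest p, the 5 with the smallest p each way for the difference, and PPARGC1A; others are said to be chosen afterwards or complete a count. FOSL2, MYC, JUN, IER3, GADD45B, EGR1, PPP1R15A, XIRP2, HSF1, SLC2A4 and RDH11 are such additions. Alternatives changed the filter, normalisation, arrays, predictor, covariates and eBayes settings. Pigs have no labelled replicate structure. Each p-value judges a relation across these 59 animals, taken as independent, which was not tested.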

Additional observations from a re-analysis of the deposited data

How the results depend on the processing

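Dim signals, a single sampling of each pig and the lack of sex, batch and trait values limit every relation here. The list score relations kept their side of the threshold in 304 recomputations, became stronger in 7, weaker in 15 and reversed in 2. For named genes the counts were 4228, 101, 272 and 16. A change of sign counted as reversed only where a relation passed before or after it. Changes of sign without a call are therefore counted among the 304 and the 4228, as for glycogen with NR4A3 given the principal component. The causes of these changes were not tested. No paired analysis was possible because the pigs form 1 group.

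The relation of NR4A3 to NR4A2 became -0.31 given the immediate early score, a sign that follows by arithmetic from their relations to that score. Scores related to NR4A3 numbered 5, but 3 without the 2 extreme pigs, 1 given the first principal component (the immediate early score), 0 given the immediate early score, and 3 to 7 with single pigs left out. Scores related to NR4A2 numbered 2, but 4 given the immediate early score. These were fast fibre (partial r = 0.483, adjusted p = 0.00103), glycogen metabolism (0.369, adjusted p = 0.0272), heat shock (-0.556) and muscle strain (-0.627). Muscle strain reversed in sign there, as did early response feedback with NR4A3, at -0.296. Both receptors were themselves related to the immediate early score, so nothing is read from these values.

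Probe sets following NR4A3 numbered 2796 of 11971, but 15 with the principal component, 170 with the immediate early score and 68 with the heat shock score as covariate. With the filter at the 75th percentile 1771 of 5966 followed NR4A3, a larger share of fewer probe sets. For NR4A2 the count of 59 became 37 without pigs 13 and 28, 101 with the principal component, 2644 with the immediate early score, of which 42 were shared with the 59, and 91 with the heat shock score. NR4A2 was itself related to the immediate early score, so nothing is read from the rise to 2644. Probe sets with a difference numbered 2433 of 11970, but 174 with the principal component. The filter at the 75th percentile gave 1529 of 5966, again a larger share of fewer probe sets. Without pig 36 alone the counts were 2235 for NR4A3 and 67 for NR4A2, and without pig 28 alone 2798 and 46. Of the called NR4A3 slopes, 48.4% were positive after quantile normalisation, against 53.7%.

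Slopes of named genes that reversed with the principal component were, on NR4A3, PPP1R3B 0.058, IDH3G 0.010, MYOZ1 0.00076, ANKRD37 -0.00107 and CTSD -0.028, and, on the difference, XIRP1 -0.013. With the immediate early score they were, on NR4A3, FOS -0.13, CYR61 -0.10, KLF4 -0.084, BTG2 -0.13 and IER2 -0.042, and, on NR4A2, ATF3 -0.26, CREM -0.22, RRAD -0.39, XIRP1 -0.41 and HBEGF -0.16. FOS, CYR61, KLF4, IER2 and ATF3 belong to that score, so each was adjusted in part for itself and its reversal says nothing about the relation.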
